A study of Homo sapiens with 8 samples.

Results

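MOLM-13 cells treated with VTP50469 and WM1119 together were compared with MOLM-13 cells given DMSO, the solvent, by bulk RNA sequencing. All groups are of this 1 established line, which comes from a human acute myeloid leukemia and carries a KMT2A-AF9 fusion. The members are the 2 libraries named for both inhibitors and the 2 DMSO libraries, 4 of the 8 libraries of the series; the labels spell the second inhibitor WM119. The other 4 libraries, 2 with VTP50469 alone and 2 with WM1119 alone, enter the fit and are quoted only beside a value of the combination. The sources used here give neither dose nor length of treatment, and they do not say if the paired libraries were grown as separate cultures, so p-values measure the spread between these libraries, which may be technical. All 12 markers fixed for this line, among them PTPRC, CD33, FLT3 and MPO, were detected in every group.

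VTP50469 blocks the pocket by which the scaffold protein Menin holds KMT2A, and with it the fusion oncoprotein, at chromatin. WM1119 inhibits KAT6A, a histone acetyltransferase of the MYST family that works in a complex with BRPF1, ING5 and MEAF6. In KMT2A-rearranged leukemia the fusion keeps genes of blood stem cells and early progenitors on, above all HOXA genes and MEIS1, and the cells stay short of the monocyte and granulocyte stages. The question here is which genes other than the markers of mature myeloid cells changed when both proteins were inhibited at once.

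The 2 combination libraries are not alike, and this sets how the changes are read. Combination replicate 2 had 12972 genes with counts, against 14142 to 14544 in the other 7 libraries, whose totals together with its own run from 18092906 to 23634468 counts. Its log2 difference from the DMSO mean fell with transcript length (Spearman rho -0.49 across 12113 genes) and rose with GC content (0.36), while combination replicate 1 had -0.11 and 0.07. Since genes are not independent replicates, these correlations only describe the 2 libraries. Replicate 2 had 1610 genes over 2-fold above the DMSO mean and 2000 over 2-fold below it, against 533 and 388 in replicate 1. For 397 genes both libraries were over 2-fold above, for 294 both were over 2-fold below, and 4 and 6 genes went over 2-fold in opposite directions, up in replicate 1 alone and up in replicate 2 alone respectively. Levels are given as CPM, the read count scaled to the library's depth, after scaling with TMM factors, and they are not divided by transcript length. A call means a Benjamini-Hochberg adjusted p under 0.05 in edgeR. A gene is said to have changed in both libraries if, in addition, the nearer combination library lay at least 2-fold beyond the nearer DMSO library after adding 0.5 CPM to each.

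Of 12401 genes tested, 726 were higher with the combination (5.85% of those tested) and 426 were lower (3.44%), 9.29% in all. Both libraries showed the change for 316 of the higher genes (2.55% of those tested) and 192 of the lower ones (1.55%), and 190 and 101 of these changed over 4-fold. Markers of mature myeloid cells, taken from a fixed list, made up 59 of the 316 and 1 of the 192, and the genes described here are drawn from the others. A gene outside this list can still belong to myeloid maturation, and whether the others change apart from it was not tested. The count of calls moved with single libraries. Without DMSO replicate 1 it was 42 higher and 27 lower, without DMSO replicate 2 it was 51 and 28, without combination replicate 1 it was 3692 and 4064, and without combination replicate 2 it was 1130 and 711. When a library of VTP50469 or WM1119 alone was left out, 258 to 305 genes were higher and 131 to 141 lower. Fitting only the combination and DMSO libraries called 0 genes in edgeR, with 1964 at an unadjusted p under 0.05, and DESeq2 on all groups called 1310 higher and 978 lower. A voom fit with a weight per library called 311 higher and 55 lower. It still called 241 of the 316 genes higher in both libraries, but only 38 of the 192 lower ones. In edgeR, 39 of the 316 and 24 of the 192 genes were called in every one of the 8 fits that leave out 1 library. Fits that lack a combination library hold no spread within that group. They called more genes than the full fit, so holding in them says little about the disagreement of the combination libraries. Of 43 markers of lymphoid, erythroid, megakaryocyte, dendritic, epithelial and stromal cells, 9 had enough counts to be tested, CD2 was called higher, 24 were at 0 in DMSO and 29 at 0 in the combination. Their summed level ran from 28.2 to 29.6 CPM in DMSO and from 39.9 to 96.0 CPM in the combination, and their part in the results was not tested. In bulk RNA, more or fewer cells of a kind and more or less RNA per cell cannot be told apart.

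**Figure D1:**
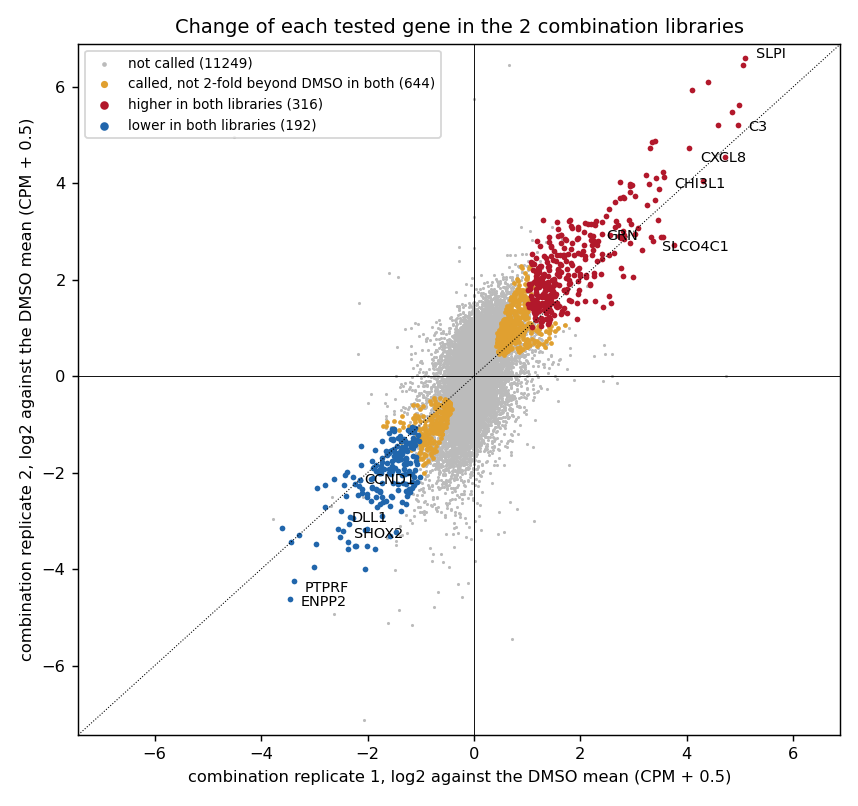
Each point is 1 of the 12401 tested genes, with its log2 change against the DMSO mean in combination replicate 1 on the horizontal axis and in combination replicate 2 on the vertical axis (CPM + 0.5); the dotted line marks equal change. The 316 genes higher in both libraries are red, the 192 lower in both are blue, the 644 genes called without the 2-fold gap in both are orange, and the grey cloud of uncalled genes spreads farther along the vertical axis than along the horizontal one.

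The 12 genes with the largest rise, outside the myeloid marker list and with at least 5 CPM on average in the combination, were led by secreted proteins. SLPI, an inhibitor of neutrophil elastase, had 2.54 and 2.51 CPM in DMSO, and 103 and 291 CPM after both inhibitors (log2 change 6.28, SE 0.60, edgeR adjusted p = 0.00318). Its level in the second combination library was above that in the first, and both were far above the DMSO pair, which barely differed. C3, the central component of complement, went from 0.92 and 0.806 CPM in DMSO to 41.8 and 49.7 CPM in the combination (log2 change 5.72, SE 0.22, edgeR adjusted p = 0.000545). CXCL8, the neutrophil chemoattractant interleukin-8, stood at 0.703 and 1.66 CPM in DMSO against 27.4 and 44.2 CPM in the combination (log2 change 4.89, SE 0.50, edgeR adjusted p = 0.00363). CHI3L1, a secreted chitinase-like glycoprotein, was at 12.9 and 16.2 CPM in the vehicle libraries and at 178 and 262 CPM in the combination libraries (log2 change 3.92, SE 0.28, edgeR adjusted p = 0.00181). For C3, CXCL8 and CHI3L1 no library of one group reached the other, which the 2-fold rule that chose the 12 genes requires of each. ENHO, which encodes the peptide adropin, had 0.162 and 0.19 CPM in DMSO, and 4.03 and 10.6 CPM after both inhibitors (log2 change 5.32, SE 0.65, edgeR adjusted p = 0.00647). AOC1 is diamine oxidase, which breaks down histamine, and went from 0.162 and 0.0474 CPM in DMSO to 4.11 and 8.8 CPM in the combination (log2 change 5.90, edgeR adjusted p = 0.00739). LRRK2, a kinase that phosphorylates Rab GTPases, was the 1 gene of the 12 with the higher value in the first combination library, with 6.36 and 3.9 CPM against 0.0541 and 0.142 CPM in DMSO (log2 change 5.60, edgeR adjusted p = 0.00776). ALOX5, the 5-lipoxygenase that starts leukotriene synthesis, stood at 0.974 and 0.522 CPM in DMSO against 11.4 and 14.1 CPM in the combination (log2 change 4.09, edgeR adjusted p = 0.00409). The membrane protein gene MCEMP1, the adaptor PRAM1 and TMEM45A rose by 4.83, 4.48 and 4.27 on the log2 scale, at edgeR adjusted p of 0.00687, 0.00663 and 0.00525. IFI6, an interferon-induced gene, is described with its list. In the 8 fits that each leave out 1 library, the calls of C3, CXCL8 and CHI3L1 held throughout. Only the fit without DMSO replicate 2 lost ALOX5, at an edgeR adjusted p of 0.0586. Without either DMSO library the calls of SLPI, AOC1, LRRK2, ENHO, MCEMP1, IFI6, PRAM1 and TMEM45A were lost, the highest edgeR adjusted p of each over those fits being 0.0613 to 0.138.

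Among the 12 genes with the largest fall, several encode surface or secreted proteins. ENPP2 makes autotaxin, the enzyme that produces lysophosphatidic acid, and was at 64.3 and 56.3 CPM in the vehicle libraries and at 5 and 1.98 CPM in the combination libraries (log2 change -4.08, SE 0.39, edgeR adjusted p = 0.00323). PTPRF, a receptor tyrosine phosphatase, had 35.3 and 27.6 CPM in DMSO, and 2.54 and 1.18 CPM after both inhibitors (log2 change -4.04, SE 0.41, edgeR adjusted p = 0.00363). Both genes were read at far higher levels in each DMSO library than in either combination library, a gap of which the rule of choice requires 2-fold. ANGPT1 encodes angiopoietin-1, the ligand of the TIE2 receptor, and went from 7.52 and 6.97 CPM in DMSO to 0.466 and 0 CPM in the combination (log2 change -4.75, SE 0.80, edgeR adjusted p = 0.0177). For ANGPT1 the second combination library had no count at all. NKX2-1, a homeobox factor best known from lung and thyroid, stood at 6.17 and 6.4 CPM in DMSO against 0.382 and 0.868 CPM in the combination (log2 change -3.37, SE 0.48, edgeR adjusted p = 0.0108). EMP1, a gene of the LSC17 stem cell signature, differed between the DMSO libraries themselves, at 14 and 5.31 CPM, against 1.23 and 0.62 CPM in the combination (log2 change -3.33, edgeR adjusted p = 0.0242). RHOBTB3 and SPIRE1, an actin nucleator, fell by 2.93 and 2.86 on the log2 scale (edgeR adjusted p = 0.00476 and 0.0445). TTC28 and the zinc finger gene ZNF532 fell by 3.12 and 3.09, at edgeR adjusted p of 0.0163 and 0.00623. The remaining pair, LOC101927497 (0.0424 and 0.248 CPM in the combination against 6.01 and 6.31 CPM in DMSO) and LOC339862 (1.1 and 0.062 CPM against 6.11 and 5.79 CPM), are uncharacterised loci. Of the genes named in this paragraph, voom with library weights called only ENPP2 (adjusted p = 0.0142). For PTPRF its adjusted p was 0.139, and for the others it ran from 0.0798 (RHOBTB3) to 0.571 (EMP1). No fit with 1 library left out ended the calls of ENPP2 and PTPRF. The calls of LOC101927497, NKX2-1, TTC28, ZNF532 and RHOBTB3 rested on both DMSO libraries: with one of them left out, the highest edgeR adjusted p was 0.057 to 0.126. For ANGPT1 the call was lost without either DMSO library or either VTP50469 library, at up to an edgeR adjusted p of 0.137. More fits lost EMP1: those without either DMSO library or either WM1119 library, with a highest edgeR adjusted p of 0.151. LOC339862 and SPIRE1 lost the call without either DMSO library, either VTP50469 library or either WM1119 library (highest edgeR adjusted p 0.227).

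**Figure D2:**
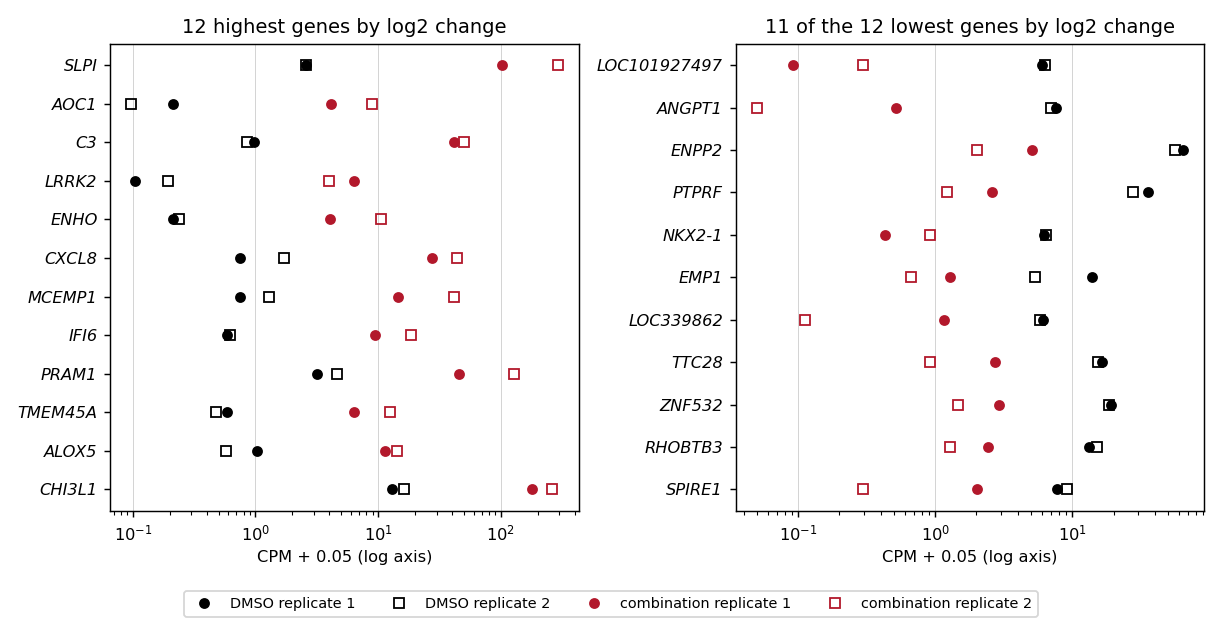
Level of the 12 genes with the highest and of 11 of the 12 with the lowest log2 change, as CPM + 0.05 on a log axis, for each DMSO library (black) and each combination library (red), with replicate 1 as a filled circle and replicate 2 as an open square. In each of the 23 genes both red points lie on the same side of both black points, as the 2-fold rule that chose them requires.

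By CPM rather than by ratio, the largest gains of both libraries were in SRGN, HLA-B, HLA-C, GRN and CORO1A. SRGN, the serglycin proteoglycan of secretory granules, was at 1148 and 1179 CPM in the vehicle libraries and at 2565 and 3344 CPM in the combination libraries (log2 change 1.34, SE 0.17, edgeR adjusted p = 0.00789). GRN, progranulin, which is secreted and also processed in lysosomes, had 162 and 174 CPM in DMSO, and 818 and 1478 CPM after both inhibitors (log2 change 2.77, SE 0.28, edgeR adjusted p = 0.00352). CORO1A, an actin-binding coronin of leukocytes, went from 469 and 476 CPM in DMSO to 1036 and 1827 CPM in the combination (log2 change 1.60, SE 0.26, edgeR adjusted p = 0.0168). The first combination library stood over 2-fold above DMSO for these 3 genes, as the rule of choice requires, and the second stood higher still. The largest losses were in MEF2C, CDK6, SHOX2, SENP6 and CNOT6L. SHOX2, a homeobox gene, stood at 363 and 339.9 CPM in DMSO against 63.4 and 37.5 CPM in the combination (log2 change -2.80, SE 0.25, edgeR adjusted p = 0.00283). CNOT6L, a deadenylase of the CCR4-NOT complex, was at 294 and 277 CPM in the vehicle libraries and at 127 and 61.8 CPM in the combination libraries (log2 change -1.60, SE 0.33, edgeR adjusted p = 0.0324). SENP6 removes SUMO chains from proteins and had 299.7 and 285 CPM in DMSO, and 134 and 61.6 CPM after both inhibitors (log2 change -1.58, SE 0.33, edgeR adjusted p = 0.0343). In all 5 lost genes the second combination library was the lower one. The calls of SHOX2 stood in all 8 fits that leave out a library. Leaving out a DMSO library ended the calls of SRGN, HLA-C, GRN and CDK6, whose highest edgeR adjusted p over the 8 fits was 0.0706 to 0.143. Leaving out either DMSO library or either VTP50469 library also took HLA-B past the threshold, up to an edgeR adjusted p of 0.172. The calls of CORO1A depended on more libraries and were lost without either DMSO library or VTP50469 replicate 2 (edgeR adjusted p up to 0.164). Those of MEF2C, SENP6 and CNOT6L were also lost without either DMSO library, either VTP50469 library or either WM1119 library, the highest adjusted p by edgeR being 0.204 to 0.211.

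Among the 39 and 24 genes whose calls stood in every fit without 1 library, 16 and 0 are on the myeloid marker list, and those named in this paragraph were chosen after their values were seen. TMC8, a transmembrane channel-like protein, went from 3.95 and 4.27 CPM in DMSO to 32.1 and 32.7 CPM in the combination (log2 change 2.97, SE 0.15, edgeR adjusted p = 0.00105). CORO2A, a second coronin, stood at 3.08 and 4.6 CPM in DMSO against 47.4 and 40.7 CPM in the combination (log2 change 3.51, SE 0.23, edgeR adjusted p = 0.00181). VASH1, vasohibin-1, which trims tyrosine from tubulin, was at 14.9 and 15.7 CPM in the vehicle libraries and at 54.9 and 60.1 CPM in the combination libraries (log2 change 1.91, SE 0.14, edgeR adjusted p = 0.00181). In VASH1 and TMC8 the replicates of each group were almost equal. HAL, histidine ammonia-lyase, rose to 12 and 13.8 CPM from 0.92 and 1.28 CPM. QPCT, the glutaminyl cyclase that caps peptides, rose to 9.37 and 12.8 CPM from 1.08 and 0.949 CPM. DAPP1, an adaptor that binds PI3-kinase lipids, reached 23.9 and 21.9 CPM from 5.09 and 4.08 CPM. The orphan receptor GPR160 and the anion exchanger SLC4A3 rose by 2.15 and 3.78 on the log2 scale. Among the lower genes, GAL, the neuropeptide galanin, had 62.8 and 64.8 CPM in DMSO, and 11.5 and 15 CPM after both inhibitors (log2 change -2.27, SE 0.17, edgeR adjusted p = 0.00181). FEZ1, an adaptor of kinesin transport, went from 44.4 and 44.9 CPM in DMSO to 13.1 and 13.3 CPM in the combination (log2 change -1.75, SE 0.14, edgeR adjusted p = 0.00191). NCS1, a neuronal calcium sensor, stood at 90.5 and 97.9 CPM in DMSO against 17.7 and 23.6 CPM in the combination (log2 change -2.19, SE 0.18, edgeR adjusted p = 0.00246). The axon guidance ligand EFNA5 was at 17.1 and 15.3 CPM in DMSO, and 3.94 and 4.46 CPM with both inhibitors. SDC2, the heparan sulfate proteoglycan syndecan-2, fell by 1.60, and MEX3A, an RNA-binding protein, fell by 2.49 (log2). SH3PXD2B, a podosome adaptor, and AGAP1, a GTPase-activating protein for ARF1, fell by 3.43 and 1.92. By voom with library weights EFNA5 and SH3PXD2B were not called (adjusted p = 0.0701 and 0.245), while the other lower genes named here were. With offsets for transcript length and GC content in the fit, 315 of the 316 and 192 of the 192 genes were still called. That fit called more genes, 1301 higher and 1103 lower, and under it 289 of the 316 and 170 of the 192 still met the 2-fold rule in both libraries.

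Targets of Menin and the KMT2A fusion were well represented among the falls. Of 37 such genes tested, 16 were called lower (43.2%) and 1 higher, and 11 were lower in both combination libraries, against 3.44% called lower over all genes. The median log2 change of the list was -0.88 in combination replicate 1 and -1.54 in combination replicate 2, beside -0.01 and -0.03 over all tested genes. SOCS2, a feedback inhibitor of cytokine receptors, was at 47.6 and 48.6 CPM in the vehicle libraries and at 10.6 and 10.5 CPM in the combination libraries (log2 change -2.19, SE 0.15, edgeR adjusted p = 0.00181). The Runt factor RUNX2 had 66.2 and 68.6 CPM in DMSO, and 26.6 and 18.7 CPM after both inhibitors (log2 change -1.57, SE 0.20, edgeR adjusted p = 0.00761). SKIDA1 went from 26.6 and 25.3 CPM in DMSO to 10.6 and 8.49 CPM in the combination (log2 change -1.44, SE 0.17, edgeR adjusted p = 0.00623). For SOCS2 the 2 libraries of each group were almost the same, and for RUNX2 and SKIDA1 the second combination library was somewhat lower than the first. MEF2C, a transcription factor of early blood cells, stood at 579 and 569 CPM in DMSO against 221 and 81.8 CPM in the combination (log2 change -1.92, SE 0.42, edgeR adjusted p = 0.0393). Chosen after their values were seen, VAT1L was at 124 and 114 CPM in the vehicle libraries and at 39.4 and 17.9 CPM in the combination libraries and fell by 2.05 on the log2 scale, and HOXA3, a HOXA gene of the anterior end of the cluster, had 3.73 and 4.22 CPM in DMSO, and 1.23 and 1.05 CPM after both inhibitors and fell by 1.79 (edgeR adjusted p = 0.0168 and 0.0114). The 1 member called higher was LMO2, a bridging factor of blood cell transcription complexes (log2 change 0.89). In the 8 fits that each leave out 1 library, the calls of SOCS2 held throughout. For SKIDA1, RUNX2 and HOXA3 the call needed both DMSO libraries, with a highest edgeR adjusted p over the fits without 1 library of 0.0903 to 0.111. Fits without either DMSO library or either VTP50469 library ended the calls of VAT1L as well, with a highest edgeR adjusted p of 0.135. For MEF2C the call was lost without either DMSO library, either VTP50469 library or either WM1119 library, at up to an edgeR adjusted p of 0.211. Over the whole list the calls were 0 higher and 1 lower without DMSO replicate 1 and 0 and 1 without DMSO replicate 2.

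The genes of the proteins that the inhibitors act on, MEN1 and KAT6A, and KMT2A were not called by edgeR. MEN1, which encodes Menin, went from 79.6 and 81 CPM in DMSO to 75.1 and 62.5 CPM in the combination (log2 change -0.22, SE 0.14, edgeR adjusted p = 0.295). KAT6A stood at 200 and 165 CPM in DMSO against 126 and 38 CPM in the combination (log2 change -1.15, SE 0.53, edgeR adjusted p = 0.19). KMT2A was at 62.7 and 50.7 CPM in the vehicle libraries and at 28.6 and 9.85 CPM in the combination libraries (log2 change -1.55, SE 0.51, edgeR adjusted p = 0.103). DESeq2 called KMT2A lower (adjusted p = 0.0126), as did edgeR with offsets for length and GC content (adjusted p = 0.028). For KAT6A and KMT2A the second combination library was over 2-fold below the first, and the transcripts are long, 9254 and 16725 bases. Of 37 genes for Menin, KMT2A and MYST acetyltransferase complex members, 0 were called by edgeR, 2 higher and 6 lower had an unadjusted p under 0.05, and DESeq2 called 2 higher and 3 lower. Of 44 genes for deacetylases, bromodomain proteins and SWI/SNF subunits, 0 were called by edgeR, with 4 higher and 8 lower at an unadjusted p under 0.05, and DESeq2 called 2 and 4. Of all 12401 tested genes, 2093 were higher and 1666 lower at an unadjusted p under 0.05. DESeq2 called 1310 higher and 978 lower in all. Among 38 Polycomb genes, CBX7, a subunit that reads H3K27 methylation, rose in both libraries and had 2.65 and 3.23 CPM in DMSO, and 7.42 and 8.55 CPM after both inhibitors (log2 change 1.44, edgeR adjusted p = 0.0128). PHF1 was also called higher (0.97), and BMI1 (-1.17) and AEBP2 (-0.69) were called lower, without the 2-fold gap in both libraries. So 2 Polycomb genes were called higher and 2 lower (5.26% each), near the 5.85% and 3.44% over all genes. Without either DMSO library the calls of CBX7 were lost, the highest edgeR adjusted p of each over those fits being 0.143. More fits lost BMI1: those without either DMSO library, either VTP50469 library or either WM1119 library, with a highest edgeR adjusted p of 0.218.

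At the entry to the cell cycle, 3 genes fell in both libraries. CCND1, cyclin D1, which activates CDK4 and CDK6, went from 30.6 and 30.6 CPM in DMSO to 5.94 and 6.82 CPM in the combination (log2 change -2.27, SE 0.16, edgeR adjusted p = 0.00181). CDK6, its partner kinase, stood at 474 and 449 CPM in DMSO against 147 and 76.7 CPM in the combination (log2 change -2.04, SE 0.34, edgeR adjusted p = 0.0168). CDKN1A, the CDK inhibitor p21 and a p53 target, was at 88.1 and 76.2 CPM in the vehicle libraries and at 27.5 and 33.2 CPM in the combination libraries (log2 change -1.44, SE 0.15, edgeR adjusted p = 0.00443). The replicates of CCND1 were close in both groups, whereas the second combination library of CDK6 held the lower level. So the activators CCND1 and CDK6 and the inhibitor CDKN1A moved the same way. With the single inhibitors, whose comparisons share the DMSO libraries, the log2 change of CCND1 was -0.30 for VTP50469 and -1.03 for WM1119, that of CDK6 was -1.02 and -0.34, and that of CDKN1A was -1.06 and -0.81. CCND3 (log2 change 0.76) and the antiproliferative gene BTG1 (0.72) were called higher, and the other members of the 28 tested cell-cycle brakes and D cyclins were not called. In this list 7.14% were called higher and 10.7% lower, beside 5.85% and 3.44% over all genes. Of 51 DNA replication genes CDC25A and CDC6 were called, both lower (3.92%, near the 3.44% over all genes). CDC25A had 86.8 and 87.9 CPM in DMSO, and 61.4 and 51.7 CPM after both inhibitors, and CDC6 went from 129 and 133 CPM in DMSO to 93.2 and 92.1 CPM in the combination. Of 57 genes of G2 and mitosis 0 were called by edgeR, with 6 higher and 1 lower at an unadjusted p under 0.05 and 4 and 1 called by DESeq2. Their median log2 change was 0.04 in combination replicate 1 and -0.35 in combination replicate 2. Of 51 DNA repair genes 0 were called by edgeR, 2 were higher and 7 lower at an unadjusted p under 0.05, and DESeq2 called 3 lower. Beside these counts, 2093 of all 12401 tested genes were higher and 1666 lower at an unadjusted p under 0.05. DESeq2 called 1310 higher and 978 lower in all. Besides CDKN1A, the p53 targets SESN2 (-0.68) and AEN (-0.53) were called lower among 26, 11.5% with CDKN1A against 3.44% over all genes. No fit with 1 library left out ended the calls of CCND1. Only the fit without DMSO replicate 1 lost CDKN1A, at an edgeR adjusted p of 0.0706. The calls of CDK6 rested on both DMSO libraries: with one of them left out, the highest edgeR adjusted p was 0.134. CDC25A, CDC6, SESN2 and AEN lost the call without either DMSO library, either VTP50469 library or either WM1119 library (highest edgeR adjusted p 0.255 to 0.296).

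**Figure D3:**
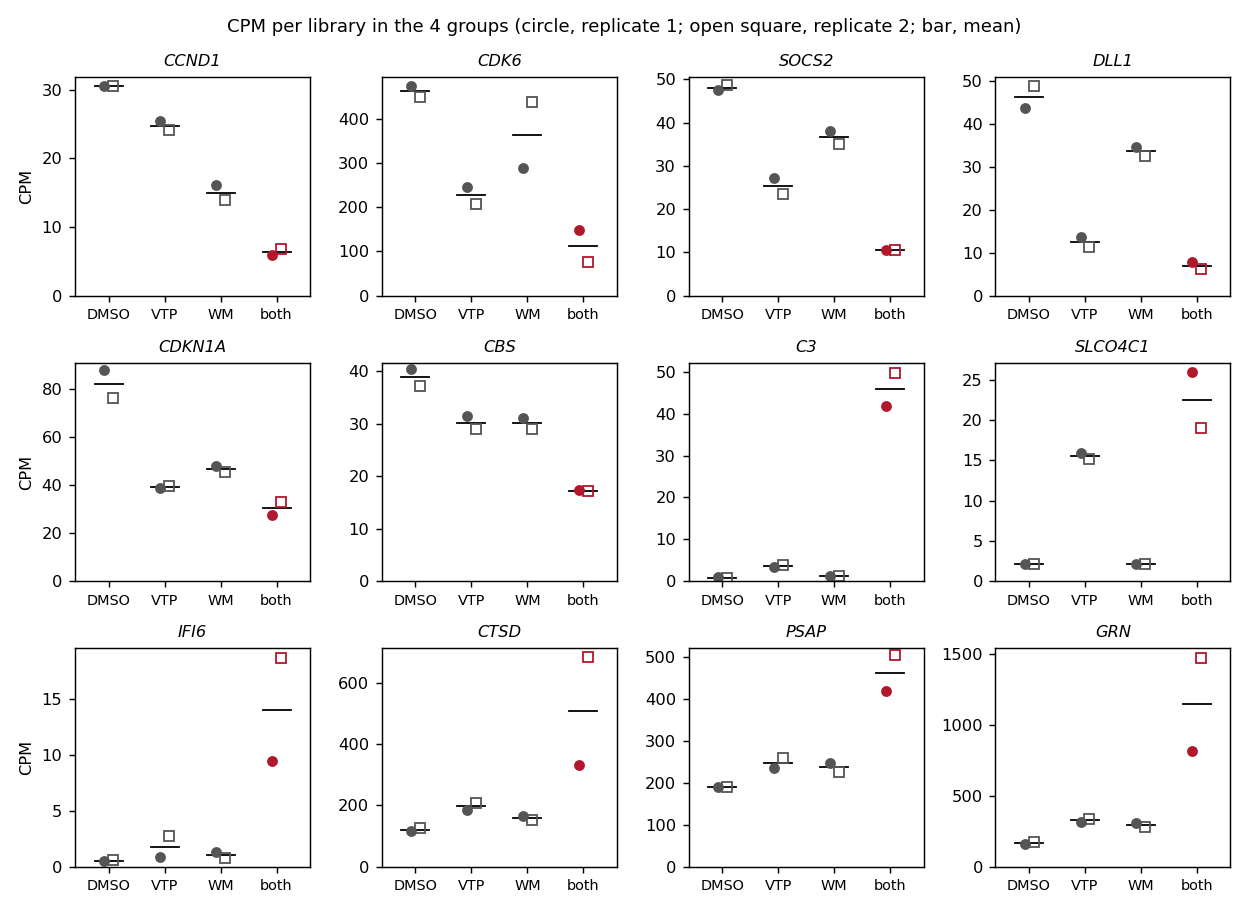
CPM of 12 genes in each of the 8 libraries, on axes that start at 0, for DMSO, VTP50469 (VTP), WM1119 (WM) and the combination (both, red); circles are replicate 1, open squares replicate 2 and bars the mean of the 2. The 6 genes from CCND1 to CBS are lowest and the 6 from C3 to GRN highest in the combination; CDKN1A and CBS change by smaller steps than C3, which stays under 5 CPM with either inhibitor alone.

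Of 48 genes for TGF-beta, Notch and WNT signalling, 9 were called lower (18.8%, against 3.44% over all genes) and 2 higher, and the 3 lower in both libraries were DLL1, JAG2 and LRP5. DLL1, a Notch ligand, stood at 43.7 and 48.7 CPM in DMSO against 7.76 and 6.2 CPM in the combination and fell by 2.72 on the log2 scale. JAG2, another Notch ligand, was at 21.9 and 22.8 CPM in the vehicle libraries and at 7.63 and 5.64 CPM in the combination libraries (log2 change -1.75, SE 0.18, edgeR adjusted p = 0.00387). Named after its values were seen, the WNT co-receptor LRP5 had 26.1 and 24.1 CPM in DMSO, and 5.89 and 2.36 CPM after both inhibitors (log2 change -2.58, SE 0.39, edgeR adjusted p = 0.0128). The ligands JAG1 (-1.29) and WNT10B (-1.19) were called lower without the gap in both libraries, and TGFB1 (1.06) and the inhibitory SMAD7 (1.11) were called higher. Over this list the calls were 0 higher and 1 lower without DMSO replicate 1 and 0 and 1 without DMSO replicate 2. Among 45 genes of G protein signalling, 5 were called higher (11.1%) and 6 lower (13.3%), beside 5.85% and 3.44% over all genes. PDE4A, which degrades cyclic AMP, went from 54.5 and 51.8 CPM in DMSO to 15.3 and 9.73 CPM in the combination (log2 change -2.08, SE 0.25, edgeR adjusted p = 0.00626). ADCY9, an adenylyl cyclase that makes cyclic AMP, stood at 162 and 158 CPM in DMSO against 62.5 and 26 CPM in the combination (log2 change -1.85, SE 0.39, edgeR adjusted p = 0.0353). RGS18, which shuts off G proteins in myeloid cells and platelets, was at 6.06 and 5.64 CPM in the vehicle libraries and at 22 and 18.2 CPM in the combination libraries (log2 change 1.78, SE 0.21, edgeR adjusted p = 0.00582). The beta-arrestin gene ARRB2 rose by 1.29 and the G protein subunit gene GNA11 fell by 1.17 (log2). The calls of DLL1 stood in all 8 fits that leave out a library. Leaving out a DMSO library ended the calls of JAG2, LRP5, WNT10B, PDE4A, RGS18, ARRB2 and GNA11, whose highest edgeR adjusted p over the 8 fits was 0.0604 to 0.135. Leaving out either DMSO library or either VTP50469 library also took JAG1 past the threshold, up to an edgeR adjusted p of 0.175. The calls of ADCY9 depended on more libraries and were lost without either DMSO library, either VTP50469 library or either WM1119 library (edgeR adjusted p up to 0.202).

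Of 26 MAPK feedback genes 2 were called higher and 3 lower (7.69% and 11.5%), of 38 PI3K, AKT and mTOR genes 2 and 3 (5.26% and 7.89%), and of 41 JAK-STAT genes 5 and 1 (12.2% and 2.44%), beside 5.85% and 3.44% over all genes. Some of the lower genes are also counted in other lists. These are CCND1 (MAPK and cell cycle), DDIT4 (PI3K and ATF4) and SOCS2 (JAK-STAT and Menin targets). In the MAPK list the phosphatase DUSP4 had 12 and 11.3 CPM in DMSO, and 3.22 and 1.49 CPM after both inhibitors (log2 change -2.28, SE 0.39, edgeR adjusted p = 0.0182), and DUSP6, a phosphatase of the same family, went from 9.47 and 7.83 CPM in DMSO to 18.3 and 14.5 CPM in the combination (log2 change 0.93, SE 0.19, edgeR adjusted p = 0.0324). These phosphatases therefore moved in opposite directions. The feedback inhibitor SPRY4 rose in both libraries but was low, at 0.92 and 0.949 CPM in DMSO, and 2.42 and 3.53 CPM with both inhibitors. Among 38 PI3K, AKT and mTOR genes, PIK3R6, a regulatory subunit of the gamma isoform of PI3-kinase, stood at 0.758 and 0.711 CPM in DMSO against 4.2 and 5.14 CPM in the combination (log2 change 2.66, SE 0.38, edgeR adjusted p = 0.0106), while PHLPP1, a phosphatase of AKT, was at 30.3 and 27.9 CPM in the vehicle libraries and at 13.7 and 11.3 CPM in the combination libraries (log2 change -1.22, SE 0.18, edgeR adjusted p = 0.0128). In the JAK-STAT list of 41 genes, IL13RA1, a chain of the interleukin-13 receptor, had 15.6 and 17.8 CPM in DMSO, and 59 and 50.8 CPM after both inhibitors (log2 change 1.72, SE 0.17, edgeR adjusted p = 0.00352), and SOCS2 was the 1 member called lower. For PIK3R6, PHLPP1 and IL13RA1 the call needed both DMSO libraries, with a highest edgeR adjusted p over the fits without 1 library of 0.0735 to 0.135. Those of DUSP4 were also lost without either DMSO library or either WM1119 library, the highest adjusted p by edgeR being 0.138. Fits without either DMSO library, either VTP50469 library or either WM1119 library ended the calls of DUSP6 as well, with a highest edgeR adjusted p of 0.253. For SPRY4 the call was lost without either DMSO library, either VTP50469 library, either WM1119 library or combination replicate 2, at up to an edgeR adjusted p of 0.256.

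Many lysosomal genes were higher with the combination. Of 54 genes for lysosomal hydrolases and membrane proteins, 24 were called higher (44.4%, against 5.85% over all genes) and 1 lower, and 43, called or not, lay above the DMSO mean in both combination libraries (79.6%, against 33.4% over all genes). The median log2 change was 0.64 in combination replicate 1 and 0.95 in combination replicate 2. Within the list, 7 genes rose in both libraries by the 2-fold rule. GM2A, the activator protein that presents GM2 ganglioside to hexosaminidase, went from 61 and 67.3 CPM in DMSO to 164 and 184 CPM in the combination (log2 change 1.44, SE 0.13, edgeR adjusted p = 0.00283). ASAH1, acid ceramidase, stood at 73.4 and 71.7 CPM in DMSO against 155 and 148 CPM in the combination (log2 change 1.06, SE 0.12, edgeR adjusted p = 0.00476). PSAP, the precursor of the saposins, was at 189 and 189.8 CPM in the vehicle libraries and at 419.8 and 505 CPM in the combination libraries (log2 change 1.29, SE 0.14, edgeR adjusted p = 0.00483). The 2 combination libraries of these 3 genes were close to each other. CTSD, CTSZ, NPC2 and CTSL were named after their values were seen. CTSD, the aspartic protease cathepsin D, had 116 and 126 CPM in DMSO, and 331 and 683 CPM after both inhibitors (log2 change 2.07, SE 0.32, edgeR adjusted p = 0.0132). CTSZ, cathepsin Z, went from 31.8 and 35.5 CPM in DMSO to 131 and 248 CPM in the combination (log2 change 2.5, SE 0.31, edgeR adjusted p = 0.00662). NPC2, which hands cholesterol out of the lysosome, stood at 31.2 and 32.7 CPM in DMSO against 75.6 and 151 CPM in the combination (log2 change 1.83, SE 0.32, edgeR adjusted p = 0.0198). The cysteine protease gene CTSL, cathepsin L, went against the others and was at 23.9 and 21.4 CPM in the vehicle libraries and at 7.72 and 10.1 CPM in the combination libraries (log2 change -1.35, SE 0.19, edgeR adjusted p = 0.00936). The enzymes HEXA (0.88) and GLA (0.98) were called higher with log2 changes near 1, and their libraries did not meet the 2-fold rule. Of 18 genes for the proton pump that acidifies lysosomes, TCIRG1 (1.31), ATP6AP2 (0.65), ATP6V0D1 (1.11) and ATP6V1H (0.60) were called higher (22.2%, against 5.85% over all genes). Of 37 autophagy genes, GABARAPL1, a protein of the autophagosome membrane, had 4.82 and 4.41 CPM in DMSO, and 13.9 and 16.9 CPM after both inhibitors (log2 change 1.74, SE 0.21, edgeR adjusted p = 0.00623), and TFE3, a transcription factor for lysosomal genes, went from 23.1 and 20.7 CPM in DMSO to 37.7 and 41.5 CPM in the combination (log2 change 0.85, SE 0.15, edgeR adjusted p = 0.0197). Only the fit without DMSO replicate 1 lost GM2A, at an edgeR adjusted p of 0.0673. Without either DMSO library the calls of ASAH1, PSAP, CTSD, CTSZ, CTSL and GABARAPL1 were lost, the highest edgeR adjusted p of each over those fits being 0.0903 to 0.146. More fits lost NPC2: those without either DMSO library, either VTP50469 library or WM1119 replicate 2, with a highest edgeR adjusted p of 0.182. TCIRG1, ATP6AP2, ATP6V0D1 and TFE3 lost the call without either DMSO library, either VTP50469 library or either WM1119 library (highest edgeR adjusted p 0.166 to 0.318). Over the lysosomal list the calls were 0 higher and 0 lower without DMSO replicate 1 and 1 and 0 without DMSO replicate 2, and voom with library weights called 13 higher.

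TFE3 and its relatives bind the letters CACGTG in promoters of lysosomal genes, so these letters were looked for, on both strands (they read the same on each), in RefSeq promoter windows from 250 bases before to 50 bases after the start. Of the tested genes, 9779 had such a window and 1027 of these held the letters (10.5%). In the lysosomal list 8 of 36 windows held them (22.2%), and of the called lysosomal genes 3 of 15 (20%), namely CTSD, CTSA and NEU1. CTSA (0.78) and NEU1 (0.81) were called higher in log2 change without the 2-fold gap in both libraries. A match is a description of the window and not a binding site. The window of CTSD is shown because it is the 1 gene of these 3 that rose in both libraries: it is on the minus strand at chr11:1763928-1764177 (GRCh38.p14), 250 bases up to the base before the start, with the match, at position -47, in capitals.
CTSD: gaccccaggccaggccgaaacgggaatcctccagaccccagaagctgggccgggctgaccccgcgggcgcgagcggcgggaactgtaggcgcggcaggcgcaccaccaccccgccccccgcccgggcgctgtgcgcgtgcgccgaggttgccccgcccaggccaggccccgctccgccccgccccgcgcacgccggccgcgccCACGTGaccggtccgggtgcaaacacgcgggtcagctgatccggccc

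Lipid genes moved less uniformly. In the list of 12 LXR targets and sterol efflux genes, ABCA7, a lipid transporter, stood at 15.3 and 15.4 CPM in DMSO against 39.9 and 60 CPM in the combination (log2 change 1.70, SE 0.25, edgeR adjusted p = 0.0111). SMPDL3A, a secreted phosphodiesterase, was at 1.95 and 3.08 CPM in the vehicle libraries and at 7.59 and 9.17 CPM in the combination libraries (log2 change 1.73, SE 0.28, edgeR adjusted p = 0.0167). PLTP, the phospholipid transfer protein, was at 1.95 and 1.14 CPM in DMSO, and 5.3 and 7.56 CPM with both inhibitors (log2 change 2.06). The lipid droplet protein gene PLIN2 fell and had 32.8 and 38.9 CPM in DMSO, and 17.3 and 14.9 CPM after both inhibitors (log2 change -1.15, SE 0.16, edgeR adjusted p = 0.00936). Of 26 cholesterol synthesis and LDL uptake genes, 2 were called and both were lower (7.69%, against 3.44% over all genes). INSIG1, the sterol sensor of the endoplasmic reticulum, went from 125 and 128 CPM in DMSO to 83.7 and 67.6 CPM in the combination (log2 change -0.74, SE 0.15, edgeR adjusted p = 0.0281). LSS, which makes lanosterol, stood at 96.7 and 87.5 CPM in DMSO against 62.7 and 65.9 CPM in the combination (log2 change -0.52, SE 0.13, edgeR adjusted p = 0.0493). Neither met the 2-fold rule. Of 31 fatty acid genes, SLC25A20 (0.90) and HADHA (0.73), both of mitochondrial beta-oxidation, were called higher (6.45%, near the 5.85% over all genes). FASN, the fatty acid synthase, did not pass (log2 change -0.87, edgeR adjusted p = 0.0566). Among 40 phospholipid and sphingolipid enzymes 8 were called higher (20%) and 1 lower (2.5%), beside 5.85% and 3.44% over all genes. PLCB2, a phospholipase C of blood cells, was at 17.3 and 20.9 CPM in the vehicle libraries and at 53.7 and 66.2 CPM in the combination libraries (log2 change 1.65, SE 0.17, edgeR adjusted p = 0.00363). PLD3, an exonuclease of the phospholipase D family in lysosomes, had 20.9 and 23.5 CPM in DMSO, and 60.3 and 104 CPM after both inhibitors (log2 change 1.89, SE 0.26, edgeR adjusted p = 0.00943). The 1 lower gene, UGCG, which puts glucose on ceramide, went from 28.4 and 30.2 CPM in DMSO to 11.8 and 5.21 CPM in the combination (log2 change -1.77, SE 0.34, edgeR adjusted p = 0.0261). Only the fit without DMSO replicate 1 lost PLCB2, at an edgeR adjusted p of 0.071. The calls of ABCA7, PLIN2 and PLD3 rested on both DMSO libraries: with one of them left out, the highest edgeR adjusted p was 0.108 to 0.129. Leaving out either DMSO library or either VTP50469 library also took SMPDL3A past the threshold, up to an edgeR adjusted p of 0.143. The calls of PLTP, INSIG1, LSS, SLC25A20, HADHA and UGCG depended on more libraries and were lost without either DMSO library, either VTP50469 library or either WM1119 library (edgeR adjusted p up to 0.174 to 0.341).

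Surface transporters, glycan enzymes and trafficking genes rose in small numbers, some of them by much. Of 50 genes for channels, pumps and solute carriers, 11 were called higher (22%) and 1 lower (2%), beside 5.85% and 3.44% over all genes. SLCO4C1, an organic anion transporter, stood at 2.16 and 2.09 CPM in DMSO against 25.9 and 19 CPM in the combination (log2 change 3.40, SE 0.22, edgeR adjusted p = 0.00181). KCNE3, a potassium channel subunit, was at 2.71 and 2.75 CPM in the vehicle libraries and at 16.6 and 16.9 CPM in the combination libraries (log2 change 2.61, SE 0.23, edgeR adjusted p = 0.00251). SLC22A4, the ergothioneine transporter, had 20.5 and 20.6 CPM in DMSO, and 50.4 and 60.1 CPM after both inhibitors (log2 change 1.42, SE 0.16, edgeR adjusted p = 0.00524). KCNQ1, the channel that KCNE3 partners, was called higher too (1.37, named after its value was seen), and the water channel AQP3 was the 1 called lower (-1.18). Of 44 glycosyltransferase genes 5 were called higher (11.4%, against 5.85% over all genes) and 0 lower. MGAT4A, which adds a branch to N-glycans, went from 1.41 and 1.47 CPM in DMSO to 14.3 and 12.6 CPM in the combination (log2 change 3.22, SE 0.23, edgeR adjusted p = 0.00181). CHST2, a sulfotransferase for selectin ligands, stood at 13.5 and 12.1 CPM in DMSO against 34.9 and 35.8 CPM in the combination (log2 change 1.47, SE 0.14, edgeR adjusted p = 0.00318). RAB37, a Rab GTPase of secretory granules, was at 6.82 and 6.36 CPM in the vehicle libraries and at 57.2 and 93.7 CPM in the combination libraries (log2 change 3.52, SE 0.30, edgeR adjusted p = 0.00246). Of 68 Rab, SNARE and endosomal genes 8 were called, all higher (11.8%, against 5.85% over all genes), and only RAB37 had the 2-fold gap in both libraries. With VTP50469 alone the log2 change of SLCO4C1 was 2.87, and with WM1119 alone its level, 2.13 and 2.11 CPM, was near that of DMSO. Among 45 actin genes, 10 were called higher (22.2%) and 2 lower (4.44%), beside 5.85% and 3.44% over all genes. MYO1F, a leukocyte myosin, had 158 and 154 CPM in DMSO, and 309 and 379.6 CPM after both inhibitors (log2 change 1.14, SE 0.14, edgeR adjusted p = 0.00638). GSN, gelsolin, which severs filaments, went from 26.4 and 25.5 CPM in DMSO to 63.4 and 104 CPM in the combination (log2 change 1.69, SE 0.27, edgeR adjusted p = 0.0145). ENAH, a filament elongation factor named after its values were seen, stood at 4.71 and 5.12 CPM in DMSO against 0.551 and 0 CPM in the combination (log2 change -3.97, SE 0.80, edgeR adjusted p = 0.0298). CSPG4, the NG2 proteoglycan known as a surface marker of KMT2A-rearranged leukemia, was at 128 and 119 CPM in the vehicle libraries and at 27 and 22.1 CPM in the combination libraries (log2 change -2.33, SE 0.18, edgeR adjusted p = 0.00197). In the 8 fits that each leave out 1 library, the calls of SLCO4C1, KCNE3, MGAT4A, RAB37 and CSPG4 held throughout. Leaving out a DMSO library ended the calls of SLC22A4, KCNQ1, CHST2, MYO1F and GSN, whose highest edgeR adjusted p over the 8 fits was 0.0653 to 0.145. Those of ENAH were also lost without either DMSO library, either VTP50469 library or either WM1119 library, the highest adjusted p by edgeR being 0.184.

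Calls among antigen presentation genes were all higher. Of 29 MHC class I and II presentation genes, 13 were called higher (44.8%, against 5.85% over all genes) and 0 lower, 6 of them in both libraries. Called or not, 24 lay above the DMSO mean in both combination libraries (82.8%, against 33.4% over all genes). The median log2 change was 0.83 in combination replicate 1 and 1.23 in combination replicate 2. HLA-B, a class I heavy chain, had 569.9 and 598 CPM in DMSO, and 1490.2 and 3209 CPM after both inhibitors (log2 change 2.01, SE 0.34, edgeR adjusted p = 0.0178). HLA-C, a further class I chain, went from 515 and 537 CPM in DMSO to 1289 and 2198 CPM in the combination (log2 change 1.73, SE 0.26, edgeR adjusted p = 0.0129). The class I genes are near copies of each other, and the counting of shared reads is not known, so how the rise divides among them is uncertain. B2M, their light chain, was called higher (1.05) without the 2-fold gap in both libraries. Class II genes were at low levels: HLA-DQB1 stood at 1.79 and 1.66 CPM in DMSO against 8.1 and 9.92 CPM in the combination (log2 change 2.38, SE 0.30, edgeR adjusted p = 0.00698), and HLA-DRA was at 6.55 and 6.26 CPM in the vehicle libraries and at 14.4 and 13.6 CPM in the combination libraries (log2 change 1.13, SE 0.16, edgeR adjusted p = 0.00973). PSMB9, a subunit of the immunoproteasome that cuts peptides for class I, had 29.7 and 29.4 CPM in DMSO, and 77.6 and 154 CPM after both inhibitors (log2 change 1.97, SE 0.34, edgeR adjusted p = 0.0195). It was the 1 gene called of 39 proteasome genes (2.56%, below the 5.85% called higher over all genes). Over this list the calls were 0 higher and 0 lower without DMSO replicate 1 and 0 and 0 without DMSO replicate 2. For HLA-C, HLA-DQB1 and HLA-DRA the call needed both DMSO libraries, with a highest edgeR adjusted p over the fits without 1 library of 0.102 to 0.143. Fits without either DMSO library or either VTP50469 library ended the calls of HLA-B and PSMB9 as well, with a highest edgeR adjusted p of 0.172 to 0.176.

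Of 39 type I interferon response genes, 9 were called higher (23.1%, against 5.85% over all genes) and 0 lower, and PLSCR1, IFI6, UBE2L6, BST2 and OAS1 met the 2-fold rule. The list's median log2 change was 0.65 in combination replicate 1 and 0.69 in combination replicate 2. The calls were 0 higher and 0 lower without DMSO replicate 1 and 0 and 0 without DMSO replicate 2, 3 higher by voom and 19 higher without combination replicate 1. IFI6, a small membrane protein, went from 0.541 and 0.569 CPM in DMSO to 9.41 and 18.6 CPM in the combination (log2 change 4.64, SE 0.69, edgeR adjusted p = 0.0122). PLSCR1, phospholipid scramblase 1, stood at 14.3 and 16.2 CPM in DMSO against 34.5 and 35.8 CPM in the combination (log2 change 1.20, SE 0.16, edgeR adjusted p = 0.00822). UBE2L6, the enzyme that passes ISG15 to its targets, was at 9.74 and 9.58 CPM in the vehicle libraries and at 23.1 and 38.4 CPM in the combination libraries (log2 change 1.67, SE 0.25, edgeR adjusted p = 0.0129). BST2 and OAS1 were named after their values were seen. BST2, tetherin, had 64.2 and 69.3 CPM in DMSO, and 159.8 and 328 CPM after both inhibitors (log2 change 1.87, SE 0.33, edgeR adjusted p = 0.021), and OAS1, which makes oligoadenylates on sensing viral RNA, was low, at 0.325 and 0.379 CPM in DMSO, and 1.74 and 2.79 CPM with both inhibitors. The second combination library was the higher one for each of the 5 genes, by least for PLSCR1. Without either DMSO library the calls of IFI6, PLSCR1 and UBE2L6 were lost, the highest edgeR adjusted p of each over those fits being 0.126 to 0.138. For BST2 and OAS1 the call was lost without either DMSO library, either VTP50469 library or either WM1119 library, at up to an edgeR adjusted p of 0.188 to 0.209.

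Interferon-stimulated promoters carry repeats of GAAA that the factors ISGF3 and IRF bind, and pairs of GAAA with any 2 bases between them were searched on both strands in the same RefSeq windows, counting overlapping matches separately. Such pairs were in 285 of 9779 windows of tested genes (2.91%), in 17 of 30 of the interferon list (56.7%) and in 4 of 8 of its called members (50%). In the MHC list 6 of 23 windows held them (26.1%), and 1 of the 9 of called members. The windows of the 3 genes that rose in both libraries and held a match are shown, each as the 250 bases up to the base before the start, on the minus strand (GRCh38.p14), with the matches in capitals. IFI6 is at chr1:27672193-27672442 with 3 matches, BST2 at chr19:17405631-17405880 with 2 overlapping matches, and PLSCR1 at chr3:146544608-146544857 with 1.
IFI6: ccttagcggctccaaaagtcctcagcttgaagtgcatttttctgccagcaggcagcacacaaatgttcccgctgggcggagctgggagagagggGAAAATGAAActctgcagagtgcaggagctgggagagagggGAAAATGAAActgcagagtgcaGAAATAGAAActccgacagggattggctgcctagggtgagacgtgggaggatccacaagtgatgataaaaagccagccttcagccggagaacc
BST2: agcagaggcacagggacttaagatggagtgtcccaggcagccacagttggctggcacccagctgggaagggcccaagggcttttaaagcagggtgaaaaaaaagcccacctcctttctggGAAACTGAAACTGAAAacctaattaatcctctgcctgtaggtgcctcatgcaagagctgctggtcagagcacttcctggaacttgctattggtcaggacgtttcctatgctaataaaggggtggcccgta
PLSCR1: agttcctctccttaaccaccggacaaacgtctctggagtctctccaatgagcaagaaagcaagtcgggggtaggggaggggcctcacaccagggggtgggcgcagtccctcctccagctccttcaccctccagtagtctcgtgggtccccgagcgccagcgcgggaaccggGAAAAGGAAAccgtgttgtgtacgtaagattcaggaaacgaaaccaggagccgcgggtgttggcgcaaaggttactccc

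Other innate immune mediators were also among the higher genes. Of 36 NF-kB pathway and target genes 8 were called higher (22.2%), 5 of them in both libraries, and 1 lower (2.78%), beside 5.85% and 3.44% over all genes. IKBKE, a kinase upstream of NF-kB and interferon factors, went from 17.3 and 19.7 CPM in DMSO to 42.7 and 52.1 CPM in the combination (log2 change 1.35, SE 0.17, edgeR adjusted p = 0.00705). TNFAIP2 stood at 20.6 and 19.7 CPM in DMSO against 54.1 and 44.7 CPM in the combination (log2 change 1.30, SE 0.17, edgeR adjusted p = 0.00732). IER3 and ICAM1, named after their values were seen, rose by 2.10 and 1.41, and the adaptor TRAF3 was the gene called lower (-1.13). Of 14 coagulation, complement and kinin genes 4 were called (28.6%, against 5.85% called higher over all genes), all higher and all in both libraries: C3, CFP, CFD and CD59. CFP, properdin, which steadies the C3 convertase, was at 1.19 and 1.99 CPM in the vehicle libraries and at 13.6 and 26.6 CPM in the combination libraries (log2 change 3.64, SE 0.45, edgeR adjusted p = 0.00672). CFD, the protease factor D of the same alternative pathway, had 103 and 112 CPM in DMSO, and 237 and 541 CPM after both inhibitors (log2 change 1.85, SE 0.36, edgeR adjusted p = 0.0274). CD59, a membrane inhibitor of the complement pore, went from 0.974 and 0.901 CPM in DMSO to 3.39 and 3.22 CPM in the combination (log2 change 1.81, SE 0.33, edgeR adjusted p = 0.0227). So 3 components of the alternative pathway and 1 inhibitor of lysis were higher. Of 47 apoptosis regulators 8 were called higher (17%) and 1 lower (2.13%), beside 5.85% and 3.44% over all genes. TNFSF10, the death ligand TRAIL, stood at 2.22 and 2.66 CPM in DMSO against 11.2 and 12.3 CPM in the combination (log2 change 2.26, SE 0.21, edgeR adjusted p = 0.00299), the 1 with the 2-fold gap in both libraries. BIK (1.26) and CASP1 (1.54) were called higher, and BCL2L11, which encodes the BH3 protein BIM, was called lower (-1.11). Only the fit without DMSO replicate 1 lost TNFSF10, at an edgeR adjusted p of 0.0604. The calls of IKBKE, TNFAIP2, IER3 and CFP rested on both DMSO libraries: with one of them left out, the highest edgeR adjusted p was 0.0996 to 0.159. More fits lost ICAM1, CFD, CD59 and CASP1: those without either DMSO library, either VTP50469 library or either WM1119 library, with a highest edgeR adjusted p of 0.18 to 0.278. BIK lost the call without either DMSO library or either VTP50469 library (highest edgeR adjusted p 0.166).

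Calls were mostly lower among amino acid supply genes and all higher among chaperones of the endoplasmic reticulum. Of 35 ATF4 targets and amino acid supply genes, 10 were called lower (28.6%, against 3.44% over all genes) and 1 higher. Called or not, 27 lay below the DMSO mean in both combination libraries (77.1%, against 36% over all genes). The median log2 change was -0.42 in combination replicate 1 and -0.68 in combination replicate 2. CBS, which starts the conversion of homocysteine to cysteine, was at 40.5 and 37.2 CPM in the vehicle libraries and at 17.4 and 17.1 CPM in the combination libraries (log2 change -1.17, SE 0.14, edgeR adjusted p = 0.00582). STC2, a secreted stress protein, had 20.7 and 18.5 CPM in DMSO, and 7.8 and 5.7 CPM after both inhibitors (log2 change -1.53, SE 0.22, edgeR adjusted p = 0.0109). DDIT4, an inhibitor of mTORC1, went from 114 and 95.1 CPM in DMSO to 41.3 and 50.1 CPM in the combination (log2 change -1.19, SE 0.17, edgeR adjusted p = 0.0108). The next enzyme after CBS, CTH, fell by 1.19, the serine enzyme PSAT1 by 0.84 and the transporter SLC7A5 by 1.06 on the log2 scale. The transporter SLC1A4 was the 1 called higher (0.62). The letters TGATGNAA, bound by ATF4 with a C/EBP partner, were in 166 of 9779 promoter windows (1.7%), in 6 of 27 of this list and in 0 of 9 of its called members. Of 28 chaperones of the endoplasmic reticulum 8 were called higher (28.6%, against 5.85% over all genes) and 0 lower, with 1 higher by voom, 1 with the replicate number as a block and 0 in each fit without a DMSO, VTP50469 or WM1119 library. HSP90B1, the chaperone GRP94, stood at 564 and 574 CPM in DMSO against 889 and 872 CPM in the combination (log2 change 0.63, SE 0.12, edgeR adjusted p = 0.0243). PDIA3, a disulfide isomerase, was at 437 and 464 CPM in the vehicle libraries and at 686 and 873 CPM in the combination libraries (log2 change 0.79, SE 0.15, edgeR adjusted p = 0.0269). EDEM2, which marks misfolded glycoproteins, had 22.6 and 22.9 CPM in DMSO, and 40.4 and 51.9 CPM after both inhibitors (log2 change 1.02, SE 0.18, edgeR adjusted p = 0.021), and CRELD2, named after its values were seen, met the 2-fold rule at 38.8 and 92.9 CPM against 17.3 and 18.4 CPM. Of 34 heat shock and cytosolic chaperones 0 were called higher and 2 lower (5.88%, near the 3.44% over all genes), and 0 lower without either DMSO library, by voom or with the replicate number as a block. HSPA8, the constitutive HSC70, went from 2792 and 2615 CPM in DMSO to 1889 and 1913 CPM in the combination (log2 change -0.51, SE 0.12, edgeR adjusted p = 0.0444), and DNAJA1, its partner, stood at 337 and 327 CPM in DMSO against 243 and 224 CPM in the combination (log2 change -0.51, SE 0.12, edgeR adjusted p = 0.0473). Leaving out a DMSO library ended the calls of CBS, STC2 and DDIT4, whose highest edgeR adjusted p over the 8 fits was 0.0932 to 0.125. Leaving out either DMSO library, either VTP50469 library or either WM1119 library also took HSP90B1, PDIA3, EDEM2, CRELD2, HSPA8 and DNAJA1 past the threshold, up to an edgeR adjusted p of 0.19 to 0.308. Over the ATF4 list the calls were 0 higher and 0 lower without DMSO replicate 1 and 0 and 0 without DMSO replicate 2. In this list voom with library weights called 0 higher and 2 lower. CBS, STC2 and DDIT4 were not called by voom (adjusted p = 0.0704, 0.148 and 0.078).

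In metabolism the changes were single genes. SLC2A6, a sugar transporter of lysosomes, was at 3.9 and 3.51 CPM in the vehicle libraries and at 11.6 and 13.2 CPM in the combination libraries (log2 change 1.74, SE 0.24, edgeR adjusted p = 0.00936). PDK3, a kinase that shuts off pyruvate dehydrogenase, had 9.31 and 10.5 CPM in DMSO, and 23.8 and 27.6 CPM after both inhibitors (log2 change 1.37, SE 0.19, edgeR adjusted p = 0.0102). HK3, the hexokinase of myeloid cells, went from 0.108 and 0.332 CPM in DMSO to 3.31 and 6.14 CPM in the combination (log2 change 4.35, SE 0.67, edgeR adjusted p = 0.0132). FBP1, the gluconeogenic bisphosphatase, was named after its values were seen and rose from 8 counts in DMSO to 73 in the combination. These 4 and PKM (0.99) were higher among 35 glycolysis and pentose phosphate genes (14.3%, against 5.85% over all genes). The lactate exporter SLC16A1 was lower (-0.99), 2.86% of the list against 3.44% over all genes. CDA, cytidine deaminase, which inactivates cytosine nucleosides, had 3 counts in DMSO and 133 in the combination, a ratio of 44.2 with a 95% counting interval of 14.8 to 217. In the same list of 40 nucleotide genes DPYD, which degrades pyrimidines, was higher (1.16) and PAICS, of purine synthesis, lower (-0.59). The shares called higher and lower in this list, 5% and 2.5%, were near the 5.85% and 3.44% over all genes. MGST1, a membrane glutathione transferase, stood at 90.3 and 88.6 CPM in DMSO against 204 and 337 CPM in the combination (log2 change 1.60, SE 0.25, edgeR adjusted p = 0.0136). BLVRB, a biliverdin reductase, was at 12.2 and 10.3 CPM in the vehicle libraries and at 28.9 and 65.8 CPM in the combination libraries (log2 change 2.07, SE 0.38, edgeR adjusted p = 0.024). FTL, the ferritin light chain, was called higher (1.24) with 3117 CPM in the first and 6008 CPM in the second combination library. For SLC2A6, PDK3, HK3, CDA and MGST1 the call needed both DMSO libraries, with a highest edgeR adjusted p over the fits without 1 library of 0.112 to 0.143. The calls of FBP1, DPYD, PAICS, BLVRB and FTL depended on more libraries and were lost without either DMSO library, either VTP50469 library or either WM1119 library (edgeR adjusted p up to 0.2 to 0.292).

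In several housekeeping gene sets the 2 combination libraries stood apart. The median log2 change of 79 cytoplasmic ribosomal protein genes was -0.11 in combination replicate 1 and 0.87 in combination replicate 2, and that of 76 oxidative phosphorylation genes was 0.01 in combination replicate 1 and 0.88 in combination replicate 2. Both sets have short transcripts, with medians of 1915 and 1585.5 bases against 3781 over all tested genes. By edgeR 0 genes of either set were called. Of the ribosomal protein genes 0 had an unadjusted p under 0.05 and DESeq2 called 0, and of the oxidative phosphorylation genes 6 were higher at an unadjusted p under 0.05 and DESeq2 called 3. Without combination replicate 1, 69 and 62 genes of the sets were called higher. RPL28, a protein of the large subunit, had 1202 and 1235 CPM in DMSO, and 1339.7 and 3266 CPM after both inhibitors. RPS2, a protein of the small subunit, went from 2908 and 2990.1 CPM in DMSO to 3221 and 5806 CPM in the combination. In both, the first combination library was little above DMSO. Proteasome genes showed the same order of the libraries, with medians of 0.08 in combination replicate 1 and 0.60 in combination replicate 2. Of 57 genes listed for nucleolar ribosome synthesis 0 were called higher and 3 lower (5.26%, near the 3.44% over all genes). The list and its 3 calls include MYC, a transcription factor rather than a nucleolar one. In this list 40 genes were below the DMSO mean in both combination libraries (70.2%, against 36% over all genes). Its median log2 change was -0.36 in combination replicate 1 and -0.31 in combination replicate 2. NIP7, a factor of large subunit assembly, stood at 140.5 and 138 CPM in DMSO against 88.8 and 71.7 CPM in the combination (log2 change -0.79, SE 0.14, edgeR adjusted p = 0.0227). MYC, the transcription factor that drives many of these genes, was at 472 and 502 CPM in the vehicle libraries and at 339 and 262 CPM in the combination libraries (log2 change -0.70, SE 0.15, edgeR adjusted p = 0.0379). TSR1, a factor of small subunit assembly, had 215 and 219.8 CPM in DMSO, and 149 and 105 CPM after both inhibitors (log2 change -0.78, SE 0.18, edgeR adjusted p = 0.0461). The lists of 59 splicing, 46 translation factor, 22 aminoacyl-tRNA synthetase, 21 TCA cycle and 20 histone genes had 0 calls by edgeR. In this order, 5, 13, 8, 4 and 2 of their genes had an unadjusted p under 0.05, and DESeq2 called 1, 6, 3, 1 and 2. Among all 12401 tested genes, 2093 were higher and 1666 lower at an unadjusted p under 0.05. DESeq2 called 1310 higher and 978 lower in all. The calls of NIP7, MYC and TSR1 were lost without either DMSO library, either VTP50469 library or either WM1119 library, the highest adjusted p by edgeR being 0.197 to 0.256.

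**Figure D4:**
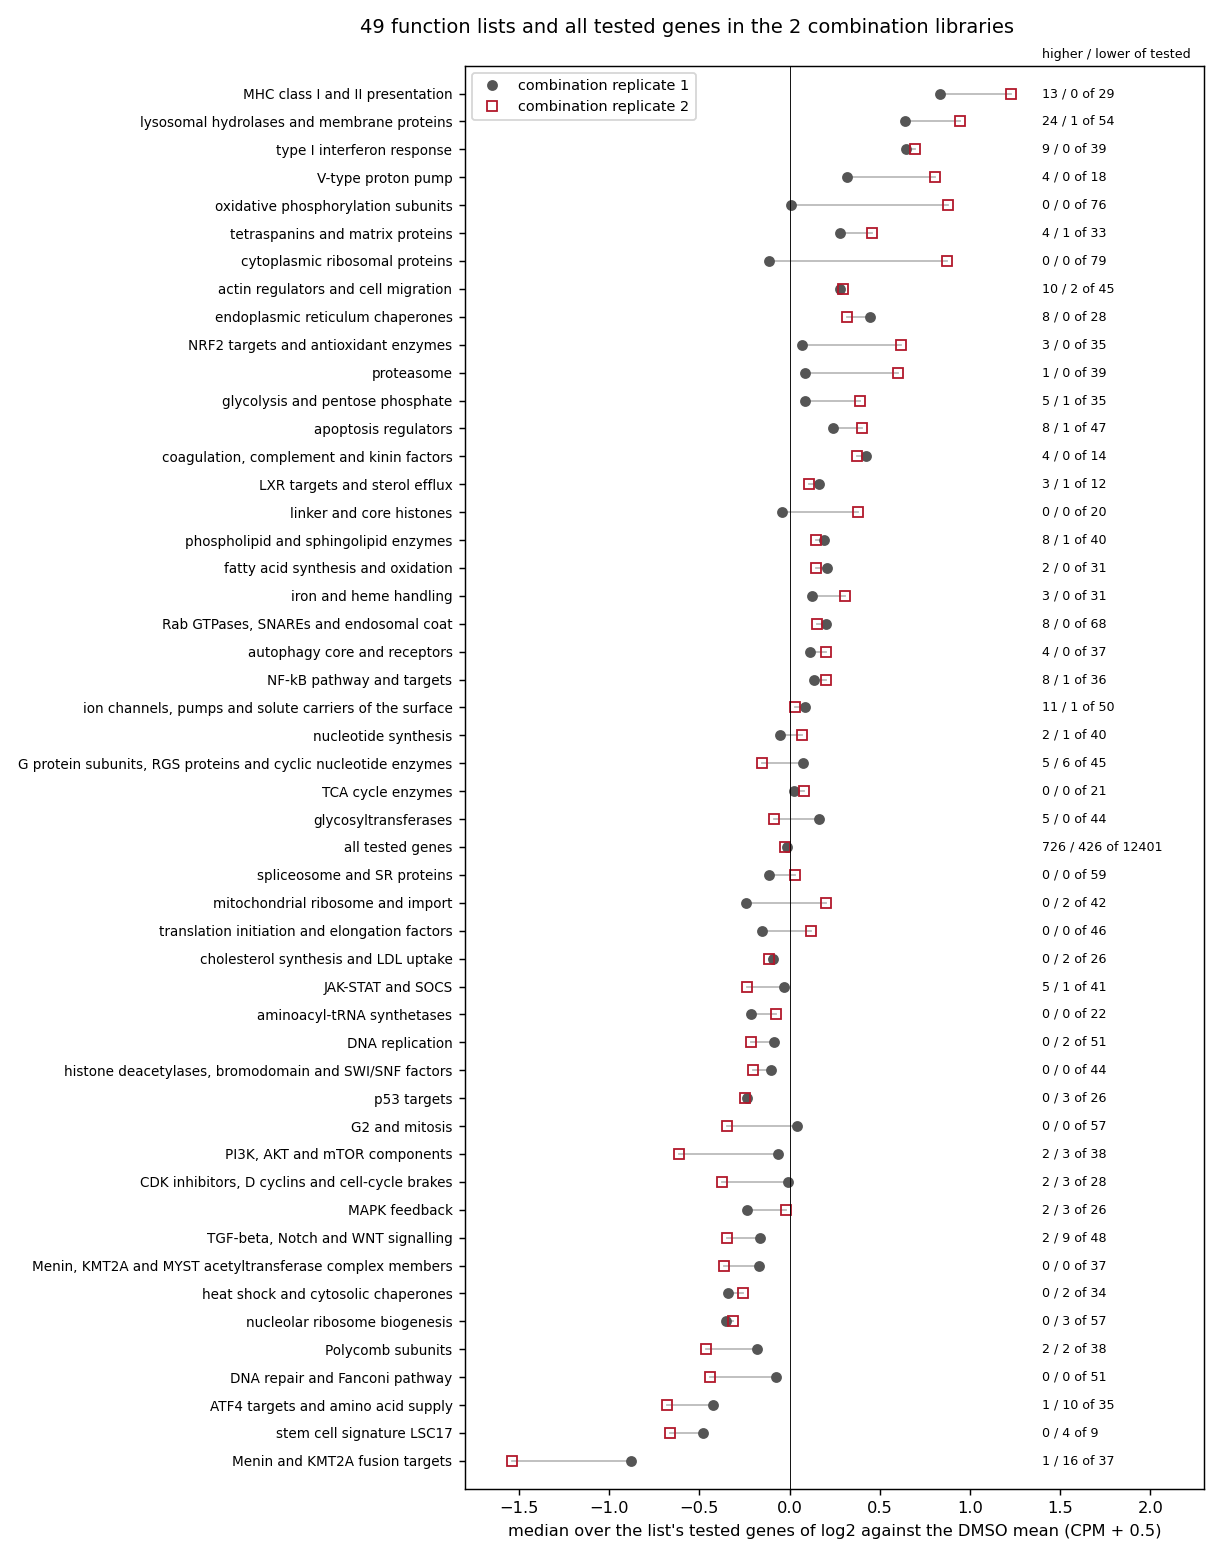
Median log2 change against the DMSO mean in combination replicate 1 (filled circles) and replicate 2 (open red squares) over the tested genes of each of 49 function lists and over all tested genes, in the order of the list's median in the fit. The numbers at the right are genes called higher and lower by edgeR. Menin and KMT2A fusion targets lie lowest, at -0.88 and -1.54, MHC presentation highest, at 0.83 and 1.23, and ribosomal protein and oxidative phosphorylation genes have the widest gap between the libraries.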

How the data were processed

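The series holds bulk RNA-seq of MOLM-13 cells in 4 groups of 2 libraries: DMSO, VTP50469, WM1119 and the combination. Reads were aligned by the authors to hg38 using STAR 2.5.1b. The deposited values are expected counts for each gene symbol, without normalization. How reads were counted, with which strand setting and annotation, is not given in the sources used here. Media, RNA kits and library kits differ between the paper and the labels. Library totals run from 18092906 to 23634468 counts, and counting intervals and floors cover counting error only.

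Expected counts were rounded and tested with edgeR 4.0.16 in R 4.3.3 (genes kept by filterByExpr, TMM scaling, all 4 groups in 1 quasi-likelihood fit, F test of combination minus DMSO, Benjamini-Hochberg adjustment over 12401 of 26475 genes). A gene changed in both combination libraries if it was called and the nearer libraries lay 2-fold apart at CPM + 0.5. On simulated counts of this comparison with 12052 genes tested, edgeR recovered 27 of 99 genes changed by log2 1 and 94 of 99 changed by log2 2, with 5.47% false calls. All genes and libraries were simulated with the same dispersion (0.0457) and without the length and GC trends of combination replicate 2. These figures therefore do not give the recovery or the false calls in the real libraries. GENCODE release 44 gave the transcript lengths and GC content, and promoter windows from RefSeq (GRCh38.p14), which matched 9779 of the 12401 tested genes by symbol.

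The text names, among genes changed in both libraries whose higher group averaged at least 5 CPM and that are outside the lists of myeloid and other cell markers, the 12 highest, the 12 lowest and the 5 largest CPM gains and losses, and up to 3 members of each of 50 function lists with the lowest p. Other names are said to be chosen after their values were seen or are given as further members of a list. The members, lists and rules were chosen with earlier results of these data known. Some genes that share sequence with a near copy, or that an earlier description of the series gives with values, are left out. A few genes and 1 function list are not reported here. No set test was run. The alternatives were DESeq2 1.42.0, limma 3.58.1 voom with a weight per library, RLE factors, library size only, other count filters, a replicate block, a robust fit, offsets for length and GC content (loess span 0.4), only the groups compared, each library left out, other fold rules and other pseudocounts. The authors also ran DESeq2 on read counts.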

Additional observations from a re-analysis of the deposited data

How the results depend on the processing

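Against 726 higher and 426 lower calls, DESeq2 gave 1310 and 978, voom with library weights 311 and 55, offsets for length and GC content 1301 and 1103, and only the combination and DMSO libraries 0 and 0. With the replicate number as a block the counts were 347 and 181. The deviations of same-numbered DMSO and combination libraries correlate at 0.11 and those of the other pairs of groups at -0.59 (WM1119 with the combination) to 0.29. These correlations cannot tell whether libraries were handled together. The labels give only a replicate number, so no pairing was assumed. With 1 library left out the counts ran from 42 to 3692 and from 27 to 4064. For genes changed in both libraries, 316 and 192, the counts were 605 and 350 with a 1.5-fold gap, 131 and 71 with a 3-fold gap and 0 and 0 with only the 2 groups fitted, 39 lower by voom, 126 lower with the block and 109 lower with a pseudocount of 2 CPM. With 1 library left out they ran from 42 to 1433 and from 27 to 1767. Scaling by library size alone moved the median log2 change of all genes to -0.0995, from 0.01, and turned no named gene. GARS turned from -0.44 to 0.0173 with length and GC offsets, and H3F3A from 1.66 to -0.296 without combination replicate 2 and to 2.46 without replicate 1. The edgeR fit on all libraries called neither, and DESeq2 called GARS (adjusted p = 0.00558). The cause of these differences was not tested. The 2 libraries of a group limit the test: in simulated counts, which lack the disagreement of the 2 combination libraries, most genes changed by log2 1 were missed.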

Other observations

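Some genes lay 2-fold beyond DMSO in both combination libraries without being called, 15 of them higher and 37 lower. The higher ones include channels and receptors at low levels. KCNJ2, a potassium channel, was at 0.0541 and 0.0949 CPM in DMSO, and 1.99 and 1.61 CPM in the combination (edgeR adjusted p = 0.0568). TRPV1, the capsaicin-sensitive channel, was at 0.92 and 0.901 CPM in DMSO, and 2.37 and 2.36 CPM in the combination (edgeR adjusted p = 0.0683). The lower ones include regulators at high levels whose second combination library was well below the first. SATB1, a chromatin organiser of lymphoid and stem cells, was at 394 and 408 CPM in DMSO, and 195 and 77.6 CPM in the combination (edgeR adjusted p = 0.0537). AFF1, a subunit of the super elongation complex and a fusion partner of KMT2A, was at 277 and 249 CPM in DMSO, and 123 and 44.3 CPM in the combination (edgeR adjusted p = 0.0734). PTCH1, the Hedgehog receptor, was at 22.9 and 23.6 CPM in DMSO, and 10.3 and 2.98 CPM in the combination (edgeR adjusted p = 0.0682). The 5 genes were picked with their values in view.

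Of the 10 genes that went over 2-fold in opposite directions in the 2 combination libraries, several are read-through transcripts or near copies of another gene. EIF3CL, a near copy of EIF3C, had 0 CPM in combination replicate 1 and 355 CPM in replicate 2, against 15.5 and 6.4 CPM in DMSO. PLSCR3 had 8.31 and 0 CPM in the combination, and the read-through TMEM256-PLSCR3, which overlaps it, had 0.254 and 9.48 CPM. How reads shared by such genes were divided is not given in the sources used here.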
